A study of Rattus norvegicus with 12 samples.

Results

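The BMAL1, CLOCK and REV-ERB/ROR loop is the stretch of the circadian clock described here, as rat liver and kidney cortex expressed it with and without trichloroethylene (TCE). Its 6 genes are Bmal1, Clock, Npas2, Nr1d1, Nr1d2 and Rora, of 14217 genes that had a probe set with a single symbol on the array. All probe sets of these genes were taken, 12 of 31042. They were found by gene symbol alone, but the loop itself counts as chosen by its values in the comparison of TCE with control, since earlier results of the same data were known. Differences between treated and control rats are therefore given as a description, without a test of their own. The differences between liver and kidney, on which that choice did not rest, were tested.

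The rats were males of 7 to 9 weeks and 190 to 240 g, named by the labels as F-344 and as Wistar-derived. TCE, a chlorinated solvent, was dosed orally on 3 days, 16 mg/kg each day, in a corn oil volume of 5 ml/kg. Controls were given the oil only, so that the vehicle is common to all groups. Liver and renal cortex, labelled kidney, were taken 24 h after the last dose from 3 treated and 3 control rats, which gives 12 arrays in 4 groups of 3. Both tissues thus came from the same rats by the study's design text, but which liver belongs to which kidney is not stated, so the tissue comparisons are unpaired. The lights came on at 4 h and stayed on for 12 h, and the hour at which each rat was dosed or killed is not given in the sources used here. Each value is a log2 expression value of a probe set, a group of short oligonucleotides that together read out a transcript, and 1 log2 unit is a 2-fold difference. With 3 arrays a group, their number limits the precision.

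BMAL1 is the activator of the clock. It pairs with CLOCK or with its close relative NPAS2, binds E-box elements and switches on the period and cryptochrome repressors, the output factor Dbp and the REV-ERB genes Nr1d1 and Nr1d2. REV-ERB proteins are nuclear receptors that recruit corepressors to ROR response elements, and RORA is an activator that binds the same elements; Bmal1 itself is a classic target of both. Messenger RNAs of most of these genes swing over the day in liver and kidney, with Bmal1 high when the REV-ERB genes are low. In liver the REV-ERB proteins are also known for restraining lipid and bile acid genes, and in kidney the clock is known for its control of sodium transport.

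In RefSeq's promoter table of rat assembly GRCr8 all 6 genes matched, Clock and Nr1d1 with 2 starts each, and the 250 bases before each start were searched on both strands for 4 motifs. These were the E-box CACGTG, the D-box TTANGTAA bound by Dbp and its relatives, the ROR core AGGTCA, and an extended ROR element of 12 letters, whose letters were chosen after the Bmal1 sequence had been read. Its letters are the capitals of the Bmal1 promoter, with any base at the 10th place. The promoters of Bmal1 and of the inner start of Nr1d1 are shown because they hold the motifs that name the loop, ROR elements in the activator's gene and an E-box in its repressor's gene. Capitals mark the motifs, and both run 5′ to 3′ on the strand of the gene.
Bmal1, chr1:176766078-176766327, plus strand: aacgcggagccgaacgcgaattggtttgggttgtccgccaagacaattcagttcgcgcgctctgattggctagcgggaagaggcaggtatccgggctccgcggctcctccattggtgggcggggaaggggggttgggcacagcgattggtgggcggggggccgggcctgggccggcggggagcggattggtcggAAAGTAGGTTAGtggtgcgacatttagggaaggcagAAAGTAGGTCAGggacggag
Nr1d1, chr10:84229455-84229704, minus strand: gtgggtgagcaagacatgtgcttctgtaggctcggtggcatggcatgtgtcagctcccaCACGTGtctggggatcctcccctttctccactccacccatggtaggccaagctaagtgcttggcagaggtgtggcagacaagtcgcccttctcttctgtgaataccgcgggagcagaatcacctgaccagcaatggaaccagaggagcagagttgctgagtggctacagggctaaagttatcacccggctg

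The Bmal1 promoter held the extended element at 2 places, 56 to 45 and 20 to 9 bases before the start. The ROR core, 15 to 10 bases before the start, lies inside the second of them. Of 33469 promoters of the same length in the table, 5 (0.0149%) held the extended element and 1 held it more than once. Bmal1 is among the 5 and is the 1 with more than 1 copy. Its own letters defined the element, so this rarity is no separate result about Bmal1. The ROR core alone was found in 14.1% of promoters. At the inner start of Nr1d1 an E-box lay 191 to 186 bases before the start, a motif present in 5.59% of promoters. The Nr1d2 promoter held 1 ROR core, 187 to 182 bases before its start. No E-box, D-box or ROR motif in these letters was found in the windows of Clock, Npas2 and Rora or at the outer start of Nr1d1, and the D-box occurred in 2.04% of all promoters. These matches describe letters in a window and not binding.

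In liver the activator and its repressors stood on opposite sides of the control values after TCE: Bmal1 was lower, Nr1d1 and Nr1d2 were higher, and Rora was lower. Clock and Npas2 overlapped between the groups. Of 12 probe sets, 8 passed the filter on dim values in liver (a mean over the 6 liver arrays above 2.45 log2 units) and covered all 6 genes. Treated and control livers did not overlap for 5 of the 8, 3 of them higher and 2 lower, while 19.2% of all 18625 probe sets tested showed no overlap (10.4% higher and 8.79% lower). In limma, 0 of the 8 passed an adjusted p of 0.05, as did 0% of all probe sets. At an unadjusted p under 0.05 there were 5 of the 8 and 13.8% of all. The smallest adjusted p among the 8 was 0.111, for Nr1d2. These p-values rest on the values that chose the loop, and Nr1d2 counts more than once. They are a description and not a test of the loop. The median difference of the 8 was 0.15 log2 units, against 0.02 over all probe sets.

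Bmal1 was read by 1 probe set (1370510_a_at). Control livers had 8.12, 7.89 and 7.69 log2 units and treated livers 6.27, 6.93 and 6.55. Every treated liver lay below every control liver. Means (± SD, n = 3) were 6.58 ± 0.33 after TCE and 7.90 ± 0.21 in controls. The log2 difference was -1.32 ± 0.20 (SE), or 2.5-fold lower.

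Of the REV-ERB genes, Nr1d2 (REV-ERB beta) was the more evenly measured. Its brightest probe set (1390430_at) gave 10.86, 10.63 and 10.92 in treated and 9.83, 9.61 and 9.94 in control livers. These groups are narrow and lie apart, with a log2 difference of 1.01 ± 0.13 (SE), or 2.01-fold higher. A second probe set (1370541_at) gave 9.22, 9.18 and 9.58 in treated against 8.48, 8.56 and 8.85 in control livers, a log2 difference of 0.69 ± 0.16 (SE). The third (1370540_at) stayed between 2.29 and 2.64 on all liver arrays, close to the lowest value of the table, 2.17, and did not pass the filter.

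Nr1d1 (REV-ERB alpha), which overlaps the thyroid hormone receptor gene Thra in the RefSeq table, had 1 probe set (1370816_at). Treated livers had 7.24, 6.91 and 6.98 log2 units and control livers 6.59, 3.63 and 5.22. The treated livers were close together and all above the controls, whose own values spanned a wide range, with an SD of 1.48 against 0.18 in treated livers. The difference of 1.90 ± 0.75 (SE) on the log2 scale therefore rests on scattered controls. Leaving out liver control replicate 2 gave 1.14, and leaving out replicate 1 of those controls gave 2.62.

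Rora, the activator that competes with the REV-ERB proteins, gave 8.62, 8.08 and 8.60 in treated and 8.87, 9.01 and 9.36 in control livers on the probe set 1379397_at. All treated livers were lower, by 0.65 ± 0.20 (SE) on the log2 scale. Its other probe set (1380478_at) sat at the lowest value on all 12 arrays and gives no level.

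The partners of BMAL1 showed smaller differences in liver. Npas2 (1383439_at) had 9.22, 8.95 and 8.63 in treated and 9.46, 9.16 and 9.31 in control livers. Treated replicate 1 lay within the controls, and the log2 difference was -0.38 ± 0.17 (SE). Clock was read by 2 bright probe sets, which overlapped between the groups. The brighter (1390199_at) had 10.42, 10.15 and 10.20 in treated and 9.93, 10.02 and 10.28 in control livers, a log2 difference of 0.18 ± 0.13 (SE). The other (1389456_at) differed by 0.11 ± 0.16 (SE). Of the remaining Clock probe sets, 1369168_a_at was at the lowest value on 12 arrays and 1380098_at stayed at 2.29 on all arrays but kidney TCE replicate 3, with 2.48.

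Signs of RNA quality and of other cells differed between the same livers. The Gapdh gap, the 3' minus the 5' control probe set, grows as RNA breaks down. It was 1.49 ± 0.254 log2 units (SD) after TCE and 0.814 ± 0.0398 in control livers, with an exact two-sided permutation p of 0.1, the lowest possible with 3 rats a group. With this gap as a covariate the differences were -1.07 ± 0.55 (SE) for Bmal1, 1.14 ± 0.34 for Nr1d2 (1390430_at), 1.76 ± 2.07 for Nr1d1 and -0.59 ± 0.57 for Rora. Those of Npas2 (-1.11) and of Nr1d2 1370541_at (1.14) were larger than without it, and those of Clock turned to -0.12 and -0.39. The gap did not overlap between treated and control livers, so this fit cannot tell the gap from treatment. Erythroid markers were lower in treated livers for 3 of 3 measured genes without overlap, with a log2 summed level of 13.4 to 14.0 against 14.3 to 14.6, and their part in the result was not tested. The summed mesenchymal markers (5 of 6 higher, 1 without overlap) were 12.1 to 12.5 after TCE and 12.0 to 12.1 in controls, again not tested for their part. Of all probe sets tested in liver, 10.4% were higher and 8.79% lower without overlap. Hepatocyte markers had a log2 summed level of 18.1 in every treated liver and 18.1 to 18.2 in controls. In bulk tissue, fewer cells of a type and less RNA per cell cannot be told apart.

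**Figure D1:**
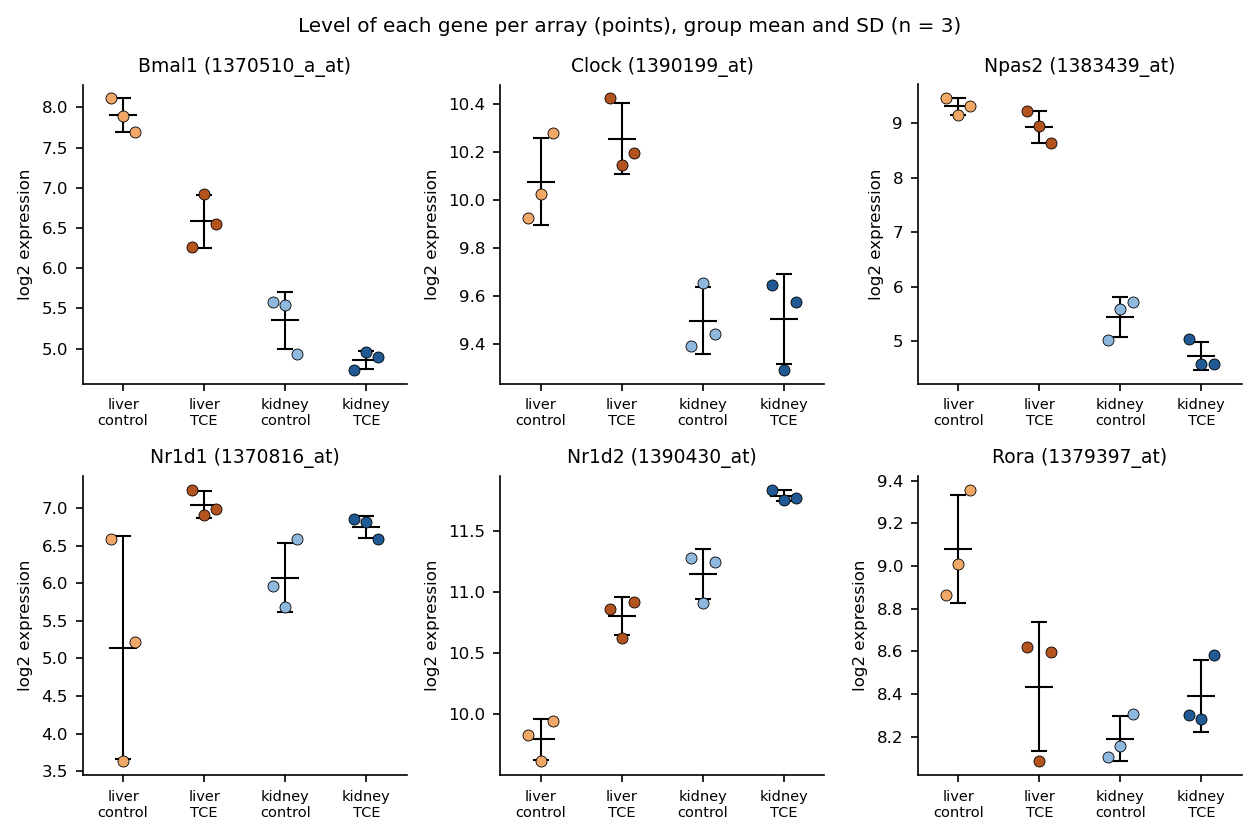
Log2 expression of the brightest probe set of each gene on each array, with the 4 groups on the x axis, points for the 3 arrays of a group, horizontal bars for means and error bars for SD; the y axes differ and do not start at 0. In liver the Bmal1 points lie between 7.69 and 8.12 in controls and between 6.27 and 6.93 in treated rats, and the control livers of Nr1d1 spread from 3.63 to 6.59.

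In renal cortex Nr1d2 was again higher in treated rats, Nr1d1 and Bmal1 differed in the same directions as in liver but with overlap, and Rora did not share the direction it had in liver. Of the 12 probe sets 9 passed the filter (a mean above 2.43 log2 units), covering all 6 genes. Treated and control kidneys did not overlap for 4 of the 9, 3 higher and 1 lower, against 19.5% of all 18625 probe sets (10.7% higher and 8.79% lower). The 3 higher ones all belong to Nr1d2, and 1 of them passed the filter only through the treated kidneys. An adjusted p of 0.05 was passed by 0 of the 9 and 0% of all in limma, and an unadjusted p of 0.05 by 7 of the 9 and 14.5% of all. Without the probe set that passed the filter through treated kidneys alone, 3 of 8 did not overlap and 6 of 8 had an unadjusted p under 0.05. The smallest adjusted p was 0.174, for Nr1d2. As in liver, these p-values rest on the values that chose the loop and count Nr1d2 more than once, so they are a description only.

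Nr1d2 separated the kidneys on each of its probe sets. On 1390430_at treated kidneys had 11.84, 11.76 and 11.77 log2 units and control kidneys 11.28, 10.91 and 11.25. That is a log2 difference of 0.64 ± 0.11 (SE), or 1.56-fold. On 1370541_at they had 10.49, 10.24 and 10.54 against 9.48, 9.44 and 9.46, a log2 difference of 0.96 ± 0.09 (SE), or 1.95-fold. Here the 3 control kidneys lay within 0.05 units of each other. On the dim 1370540_at the treated values were 3.37, 3.39 and 4.64 and the controls 2.44, 2.44 and 2.37, at the bottom of the scale. Its difference of 1.39 ± 0.37 (SE) has no exact size for that reason.

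For Nr1d1 treated kidneys had 6.85, 6.81 and 6.59 and control kidneys 5.96, 5.68 and 6.59. Control replicate 3 equalled treated replicate 3 at 6.59, so the groups touch, and the log2 difference was 0.67 ± 0.25 (SE). Bmal1 had 4.73, 4.95 and 4.89 in treated and 5.58, 5.54 and 4.94 in control kidneys. The same control replicate 3 lay among the treated values here, and the log2 difference was -0.49 ± 0.19 (SE). Without that array it was -0.70.

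Npas2 was lower in treated kidneys, with 5.03, 4.58 and 4.58 log2 units against 5.01, 5.59 and 5.71. Treated replicate 1 overlapped control replicate 1, and the difference was -0.71 ± 0.23 (SE). The repeated 4.58 is the lowest value of this probe set, so the size of that difference is uncertain. Clock disagreed between its bright probe sets: 1389456_at had 7.92, 7.88 and 7.92 in treated and 8.10, 8.18 and 8.02 in control kidneys, a small separation of -0.19 ± 0.06 (SE), while 1390199_at differed by 0.01 ± 0.12 (SE). Rora had 8.30, 8.28 and 8.58 in treated and 8.11, 8.16 and 8.31 in control kidneys. Treated values were mostly above the controls but overlapped them, with a difference of 0.20 ± 0.11 (SE).

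Podocyte markers were higher in treated kidneys for 3 of 3 measured genes without overlap, with a log2 summed level of 10.2 to 10.6 against 9.57 to 9.74. Macrophage markers were higher for 4 of 4 tested genes, 1 without overlap, at 7.77 to 8.15 against 7.55 to 7.72. Of all probe sets tested in kidney, 10.7% were higher without overlap. The part of either marker list in the result was not tested. The Gapdh gap overlapped between these groups (0.655 ± 0.189 after TCE and 0.971 ± 0.11 in control kidneys, SD of 3 rats, two-sided exact permutation p = 0.2). The same gap of the Actb control probe sets did not overlap, at 4.31 ± 0.093 after TCE and 4.48 ± 0.0795 in control kidneys (SD of 3 rats, exact permutation p = 0.1, two-sided, the smallest possible). The part of the Actb gap in the result was not tested. Kidney differences adjusted for the Gapdh gap instead were 0.76, 0.78 and 0.78 for Nr1d2 and 1.04 for Nr1d1. Rora then had 0.08, and the Clock probe sets -0.27 and -0.31.

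**Figure D2:**
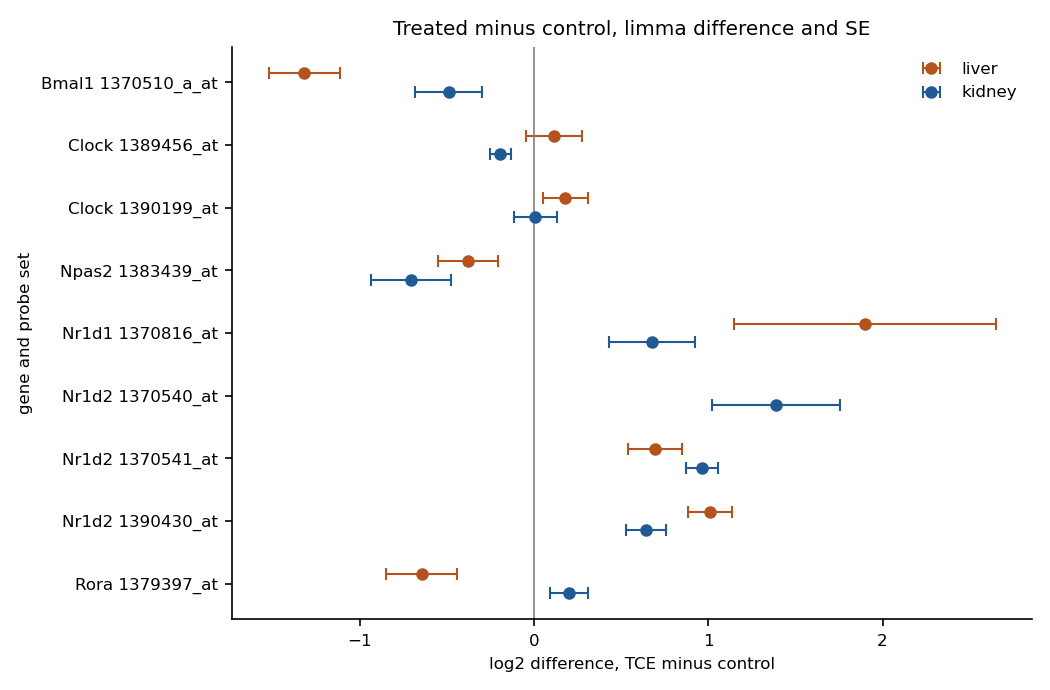
Log2 difference between treated and control rats for each probe set that passed the filter, with limma's SE as error bars, in liver and in kidney. Nr1d1 and Nr1d2 lie right of 0 and Bmal1 and Npas2 left of it in both tissues, and Rora lies at -0.65 in liver and 0.20 in kidney.

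The liver difference minus the kidney difference was read over all 12 arrays, and it rests on the same values that chose the loop, so it too is a description. Of the 9 probe sets past that filter 0 had an adjusted p under 0.05 in limma, against 1.06% of all 18625, and 3 of the 9 had an unadjusted p under 0.05, against 17.7% of all. Leaving out 1370540_at, which passed through treated kidneys alone, this was 2 of 8. Rora had -0.84 ± 0.24 (SE) on the log2 scale and Bmal1 -0.83 ± 0.29. For Nr1d1 it was 1.23 ± 0.81, which became 0.47 when liver control replicate 2 was left out and 1.95 when replicate 1 of those controls was. The bright Nr1d2 probe sets had 0.37 ± 0.18 (1390430_at) and -0.27 ± 0.19 (1370541_at), and the dim 1370540_at -1.30 ± 0.40. Npas2 had 0.33 ± 0.30, and the Clock probe sets 0.17 ± 0.19 (1390199_at) and 0.31 ± 0.18 (1389456_at). Several of these moved with the Gapdh gap in the fit: Bmal1 to -0.54, Nr1d1 to 0.62, Nr1d2 1370541_at to 0.36, 1370540_at to -0.12, Npas2 to -0.07 and Clock to 0.33 and -0.02. Since the gap did not overlap between treated and control livers, this fit cannot tell it from treatment in liver.

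The 6 genes were next compared between liver and renal cortex of control rats. Npas2 and Bmal1 were higher in liver, Nr1d2 was higher in kidney, and Clock and Rora were moderately higher in liver. Of 8 probe sets past the filter 7 passed an adjusted p of 0.05 in limma, 5 higher and 2 lower in liver, when 61.8% of all 18625 did (26.8% higher and 35.1% lower). With each array centred on its median, 67.0% of the calls were higher in liver against 43.3% without it, and the median difference of all probe sets moved from -0.07 to 0.34 log2 units. The 7 kept their direction and their call with that centring, but not their size: Clock moved to 0.99 and 1.03 and Nr1d2 to -0.94 (1390430_at) and -0.42 (1370541_at).

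Npas2 rose the furthest from kidney to liver, with 9.31 ± 0.15 log2 units in control livers and 5.44 ± 0.37 in control kidneys (SD, n = 3 each). The log2 difference was 3.88 ± 0.21 (SE), or 14.7-fold (limma adjusted p = 3.00e-05). For Bmal1, 7.90 ± 0.21 in liver stood against 5.35 ± 0.36 in kidney, a log2 difference of 2.55 ± 0.21 (SE), or 5.86-fold (limma adjusted p = 0.000187). No liver overlapped a kidney for either gene. Clock, the alternative partner of BMAL1, differed less: 1390199_at was higher in liver by 0.58 ± 0.13 (SE, limma adjusted p = 0.00964) and 1389456_at by 0.62 ± 0.14 (0.0125). With the Gapdh gap as a covariate neither Clock call held (adjusted p = 0.122 and 0.0961).

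The receptors divided. Nr1d2 was lower in liver on both bright probe sets, by -1.35 ± 0.14 (SE) on 1390430_at (limma adjusted p = 0.000484) and by -0.83 ± 0.11 on 1370541_at (0.00141). Rora was higher in liver by 0.89 ± 0.15 (SE, limma adjusted p = 0.00316), with controls at 8.87 to 9.36 in liver and 8.11 to 8.31 in kidney. Nr1d1 overlapped between the tissues, at 5.15 ± 1.48 in liver and 6.07 ± 0.46 in kidney (SD, n = 3 each), and did not pass (log2 difference -0.93 ± 0.76 SE, limma adjusted p = 0.328). Without liver control replicate 2 that difference was -0.17.

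Treated rats gave a separate set of livers and kidneys, and the same tissue comparison in them. Of 9 probe sets 7 passed (4 higher and 3 lower in liver), when 61.1% of all did (26.9% higher and 34.2% lower). Leaving out 1370540_at, which passed the filter only through the treated kidneys, 6 of 8 passed, 4 higher and 2 lower. Npas2 differed by 4.20 ± 0.20 (SE, limma adjusted p = 1.93e-05), Bmal1 by 1.72 ± 0.18 (0.000477) and the Clock probe sets by 0.75 ± 0.13 (0.0039) and 0.93 ± 0.10 (0.000478). For Npas2 the size is uncertain, since 2 treated kidneys share its lowest value, 4.58. Nr1d2 was again lower in liver, by -0.99 ± 0.10 on 1390430_at (0.000382) and -1.10 ± 0.14 on 1370541_at (0.00122). Rora, called in control rats, had a difference of 0.04 ± 0.18 (SE, limma adjusted p = 0.849) in treated rats, and Nr1d1 of 0.30 ± 0.13 (0.0895). Centring moved Nr1d2 to -0.60 and -0.72, Clock to 1.14 and 1.31, and Rora to 0.43, which did not pass. The Nr1d1 call depends on the scaling, with an adjusted p of 0.00546 when arrays were centred and 0.0257 after quantile normalization. Once the Gapdh gap entered the fit, the Npas2 call alone held in treated rats. The limma adjusted p of the other called probe sets ran from 0.0596 (Bmal1) to 0.883 (Nr1d2, on the dim 1370540_at). The bright Nr1d2 probe sets had 0.0733 (1390430_at) and 0.165 (1370541_at). This gap did not overlap between treated livers and treated kidneys, so the fit cannot tell the gap from tissue. The call of 1370540_at ended under 4 of 15 alternatives, among them that covariate and leaving out liver TCE replicate 1 (0.0701) or 2 (0.0669). How far the tissue differences of treated and control rats lie apart is the difference of differences given above.

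**Figure D3:**
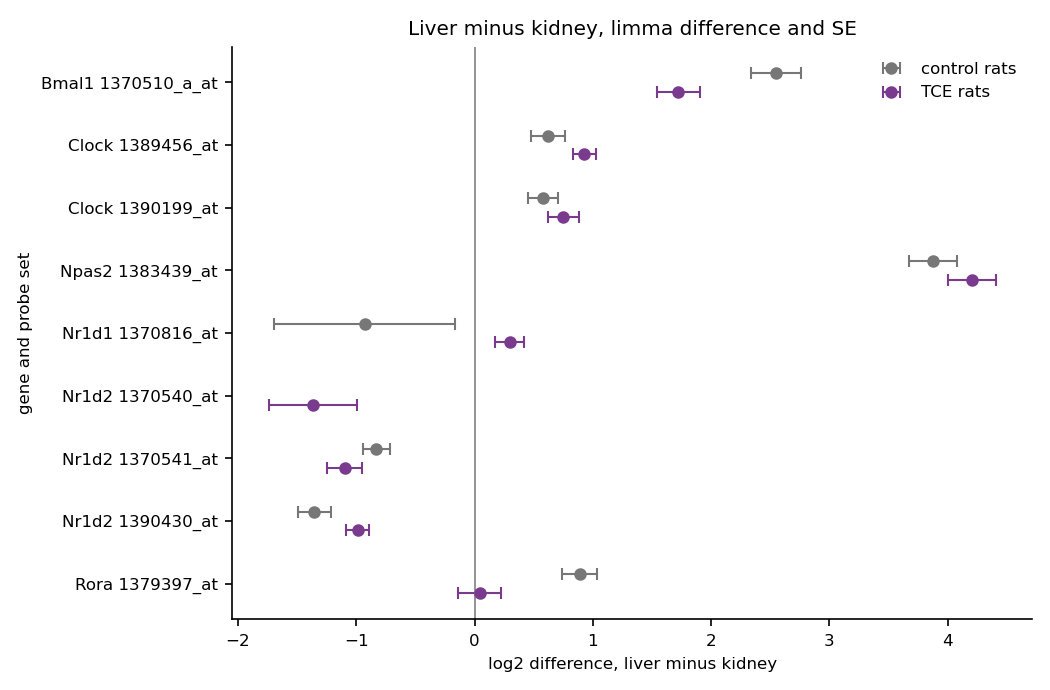
Log2 difference between liver and kidney for each probe set past the filter, with limma's SE as error bars, in control rats and in TCE rats. Npas2 lies at 3.88 and 4.20, Bmal1 at 2.55 and 1.72, and the bright Nr1d2 probe sets left of 0 in both, while Rora lies at 0.89 in controls and 0.04 in treated rats.

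The tissue labels were checked against marker genes. Albumin (Alb) was 16.3 to 16.4 log2 units in all livers. The apolipoprotein Apoa1 was 14.7 to 14.9 in livers and 2.23 to 2.44 in kidneys, near the lowest value. The proximal tubule phosphate transporter Slc34a1 was 15.1 to 15.4 in kidneys and 2.63 to 3.57 in livers. Alb varied from 4.36 to 12.8 over the kidneys, highest in kidney control replicate 2. Without that array the tissue differences were 3.95 for Npas2 and 2.64 for Bmal1. Of the T and B cell markers, Cd3d and Cd79b sat at the lowest value on all 12 arrays and Cd3e lay between 2.17 and 3.03. Ptprc, of the same list, had 6.64 to 8.47. Medians of the arrays were 3.51 to 3.54 in liver and 3.88 to 3.96 in kidney, and arrays of a group correlated at 0.9928 to 0.997 across probe sets.

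Over the 4 groups the genes took different orders of level. Bmal1 ran from control liver (7.90) through treated liver (6.58) and control kidney (5.35) to treated kidney (4.86), where only the last 2 groups overlapped. Npas2 had the same order, with an overlap between the groups of each tissue. Nr1d2 ran the other way, from treated kidney (11.79) through control kidney (11.15) and treated liver (10.81) to control liver (9.80), with the middle 2 groups overlapping. Nr1d1 was highest in treated liver (7.04), next in treated kidney (6.75), and lowest in control liver (5.15), and neighbours below the first overlapped. Rora stood alone in control liver (9.08), with the other 3 groups between 8.19 and 8.43 and overlapping. Clock had the 2 liver groups (10.26 and 10.08) above the 2 kidney groups (9.50 in each).

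Likeness of pattern was measured as Pearson's r over the 12 arrays after the mean of each tissue was subtracted. What remains is treatment and every other difference between arrays of a tissue, RNA quality and cell content among them. So r across 2 treated and 2 control clusters is a description only. For Nr1d2 (1390430_at) the gene most alike among 14136 probe sets of other genes was Dbp, the clock output factor, at 0.97. It was followed by Asap1 (0.94) and Ldlrad3 (0.92). The most opposite were Afmid (-0.96), the glycolytic enzyme Eno1 (-0.95) and Tm6sf2 (-0.94). Bmal1 and Nr1d2 ran opposite to each other at -0.91, and Bmal1 and Nr1d1 at -0.70, while Nr1d1 and Nr1d2 ran together at 0.79.

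The other members were each read in the same way. The genes most like Bmal1 were Pdlim1 (0.97), Sdhc of respiratory complex II (0.94) and Tm6sf2 (0.94), and the most opposite Pnisr (-0.96), Luc7l2 (-0.96) and Dmxl2 (-0.94); Bmal1 had 0.88 with Cry1 and -0.91 with Dbp. For Nr1d1 they were Rbbp8 (0.93), Ptpn13 (0.92) and Rasgrp3 (0.91), and on the other side Brca2 (-0.94), Klf10 (-0.93) and Pnpla8 (-0.93). Rora was most like ST7 (0.93), Phldb2 (0.93) and Acer3 (0.92) and most opposite to Luc7l (-0.96), Zc3h13 (-0.96) and Ppp1r10 (-0.94). Npas2 followed Ralgps2 (0.88), Ten1 (0.88) and Nexmif (0.87) and opposed Dmrt2 (-0.92), Srsf2 (-0.91) and Brix1 (-0.90). Clock followed Guca2a (0.89), Zfhx3 (0.88) and Kank2 (0.86) and opposed Mrpl34 (-0.91), Pls1 (-0.90) and Selenbp1 (-0.90).

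**Figure D4:**
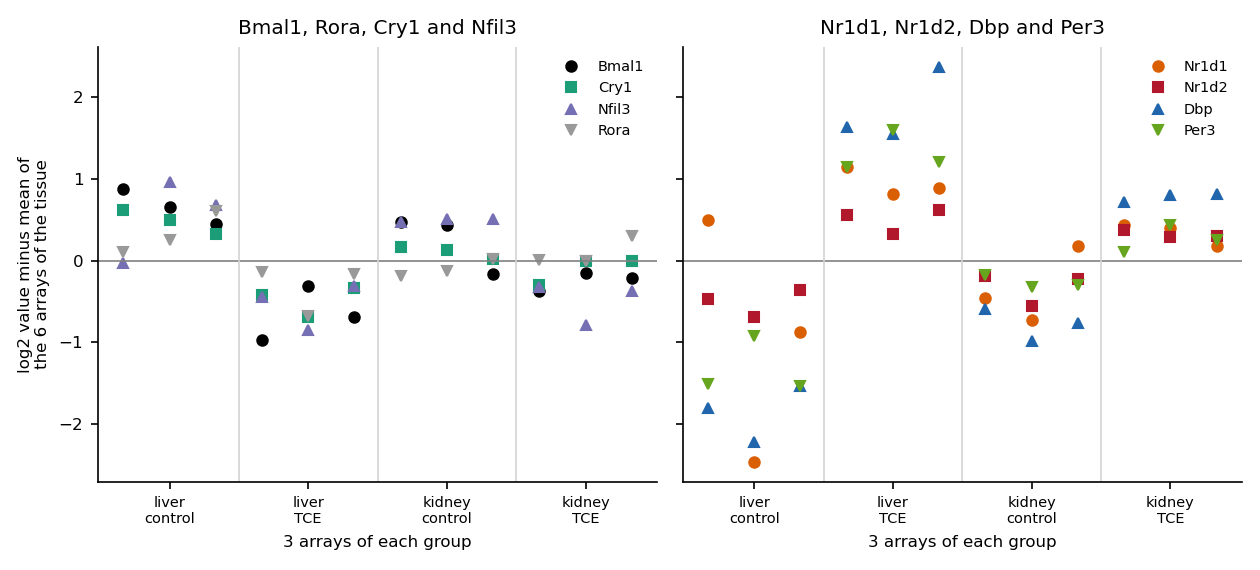
Log2 value of each array minus the mean of the 6 arrays of its tissue, for Bmal1, Rora, Cry1 and Nfil3 on the left and Nr1d1, Nr1d2, Dbp and Per3 on the right, with the 3 arrays of each group side by side. In liver Dbp runs from -2.22 to 2.37 and Bmal1 from 0.87 to -0.97 between control and treated rats.

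The genes around the loop were read from fixed lists, with a gene represented by its brightest probe set. Among period, cryptochrome and Dec repressors, 7 of 8 had a probe set; in liver 4 were higher and 3 lower after TCE (median log2 difference 0.04), and in kidney 6 higher and 1 lower (0.52, against 0.00 over all probe sets). No overlap was seen for 2 higher and 1 lower of them in liver and for 5 higher and 1 lower in kidney. Of all probe sets tested, 10.4% were higher and 8.79% lower without overlap in liver, and 10.7% and 8.79% in kidney. Named by the smallest p in liver, Per3 differed by 2.64 ± 0.22 (SE) in liver and 0.52 ± 0.10 in kidney. The repressor Cry1, itself a target of REV-ERB proteins, differed by -0.96 ± 0.13 and -0.21 ± 0.10. Per2 differed by 1.13 ± 0.25 and 0.64 ± 0.16, and Per1 by 1.16 ± 0.65 and 0.38 ± 0.62.

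Of the PAR bZIP factors, which carry the rhythm to output genes, Dbp differed by 3.71 ± 0.29 (SE) in liver and 1.56 ± 0.11 in kidney, Tef by 0.58 ± 0.09 and 0.24 ± 0.16, and Hlf by 0.03 ± 0.23 and 0.19 ± 0.11. Their antagonist Nfil3, another gene repressed by REV-ERB proteins, differed by -1.07 ± 0.30 and -0.99 ± 0.14. Nfil3 was the member of this list with treated values below all controls in both tissues. Dbp had treated values above all controls in both tissues, and Tef in liver only. That makes 2 higher and 1 lower of 4 without overlap in liver, and 1 higher and 1 lower in kidney. Over all probe sets tested, 10.4% were higher and 8.79% lower without overlap in liver, and 10.7% and 8.79% in kidney. None of the genes in these lists passed an adjusted p of 0.05 in either tissue.

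Kinases and ubiquitin ligases that set the lifetime of clock proteins lay near 0, with 8 of 10 measured, 3 higher and 5 lower in liver (median -0.04) and 5 higher and 3 lower in kidney (0.03). The AMP-activated kinase subunits Prkaa1 and Prkaa2 had -0.33 ± 0.14 and -0.29 ± 0.14 (SE) in liver. Csnk1e, casein kinase 1 epsilon, sat at 1 repeated low value of 4.36 in all treated livers and all kidneys, so its difference has no size. Gsk3b, a kinase that acts on several clock proteins, had 0.20 ± 0.22. Of the corepressors and coactivators 10 of 12 were measured, 8 higher and 2 lower in liver (median 0.05) and 4 higher and 6 lower in kidney (-0.06). The acetyltransferases Crebbp and Ep300, coactivators of many factors, had 0.33 ± 0.08 and 0.54 ± 0.13 in liver without overlap, and Kat2b 0.06 ± 0.06. In liver 2 of the 10 were higher and 0 lower without overlap, when 10.4% of all probe sets were higher and 8.79% lower. Ppargc1a, a coactivator of ROR receptors, had -1.88 ± 0.96 in liver and -0.07 ± 0.19 in kidney, with overlap in both.

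Textbook targets of BMAL1/CLOCK and of REV-ERB/ROR were read as 1 list, whose members are driven in opposite directions by activators and repressors. Of 23 genes 18 passed the filter in liver, 9 higher and 9 lower (median 0.02), and 16 in kidney, 10 higher and 6 lower (0.04). No overlap was seen for 2 higher and 1 lower in liver and for 2 higher and 0 lower in kidney. Over all probe sets tested these shares were 10.4% higher and 8.79% lower in liver, and 10.7% and 8.79% in kidney. Cyp8b1, the sterol 12-alpha-hydroxylase of bile acid synthesis, differed by 0.75 ± 0.22 (SE) in liver without overlap. Avpr1a, a vasopressin receptor, differed by -0.80 ± 0.24, also without overlap. The cytochrome P450 reductase Por had -0.44 ± 0.20. Wee1, the cell cycle kinase driven by E-boxes, had 0.88 ± 0.44 in liver and 0.19 ± 0.08 in kidney, without overlap in either. Bmal2 sat at the lowest value of the table on 11 arrays and Rorb on 12, so that neither gives a comparison here.

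**Figure D5:**
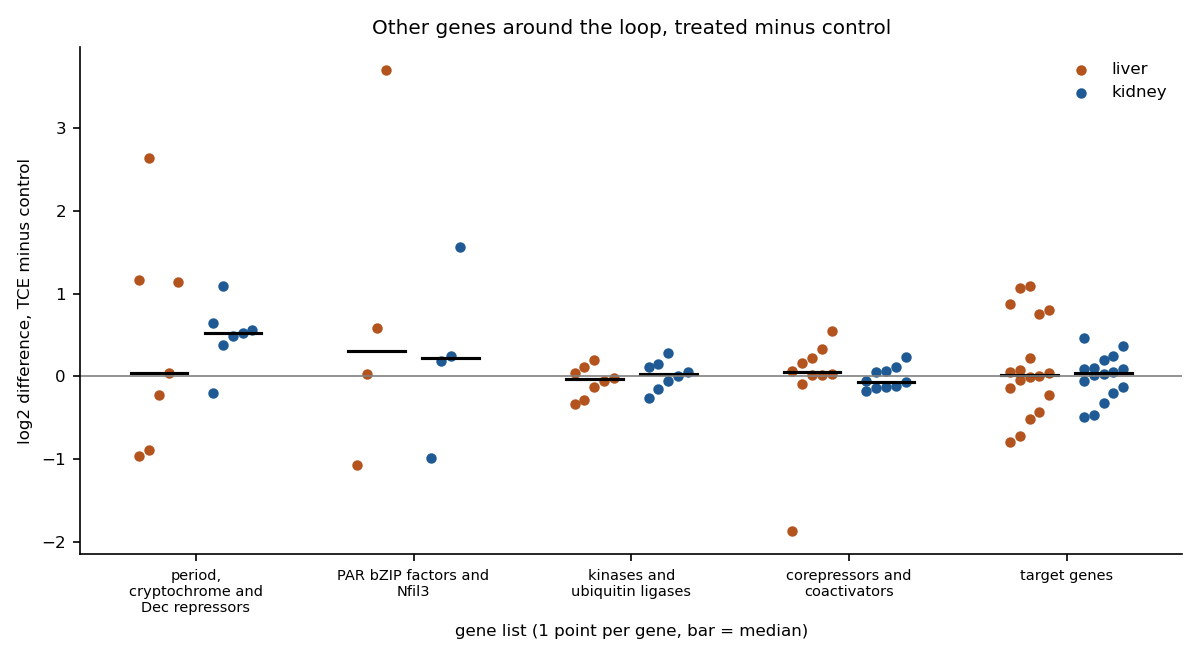
Log2 difference between treated and control rats for genes around the loop, 1 point per gene and a bar for the median of each list, in liver and kidney. Single genes in liver run from Ppargc1a at -1.88 to Dbp at 3.71, and the liver medians of the repressors, kinases, cofactors and targets lie between -0.04 and 0.05. The liver median of the PAR bZIP factors and Nfil3 lies at 0.31.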

How the data were processed

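The 12 arrays are described by 1 series-wide file of log2 values that the authors deposited, with 31099 rows from 2.17 to 16.5. Its log base was inferred from that span. Per the submitters' processing notes, affy and limma had a part in making it. Which steps they did, and how background, scaling and centring were handled, is not given in the sources used here. Groups come from the sample titles. A group holds 3 separate rats, per the labels' protocols, liver and kidney of 1 rat are not linked by them, and p-values measure the spread between these samples.

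Symbols come from the platform annotation (20832 probe sets with 1 symbol, 436 with several), and 57 control probe sets were left out. Probe sets above the 40th percentile of the mean over a fit's arrays were tested with limma 3.58.1 in R 4.3.3 (lmFit, eBayes, two-sided, Benjamini-Hochberg over 18625 probe sets, threshold 0.05), checked on simulated data. SE is limma's moderated one. Comparisons used the 2 groups concerned, or 12 arrays for the difference of differences. Promoters are RefSeq's (GRCr8), searched with Python 3.11.15.

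Members and lists were chosen with earlier results of these data known. Members are named whatever their values; up to 4 genes of a list are named, those with the smallest p in liver, and 3 genes each way by likeness. Alternatives were other filters, probe set choice, scalings, variance models, weights, blocks, a Gapdh covariate, thresholds and left-out arrays.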

Additional observations from a re-analysis of the deposited data

How the results depend on the processing

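Among values of the 6 genes under alternatives, 11 lost and 3 gained a call, 19 moved by more than the spread between rats or turned sign uncalled, and 723 did none of these, which allows small shifts. The sign turned in 16, mostly of Clock, and in 0 of these was the value past the threshold before or after. For TCE against control in liver, limma called 0 probe sets, 21 with no filter, 37 at a threshold of 0.1, 339 with the spread pooled over 12 arrays, and 0 to 1 with an array left out. In kidney it called 0, and 5, 1 and 26 in the same order; 1 with the 60th percentile filter and 0 with any array left out. With 12 arrays Bmal1 in liver had an adjusted p of 0.0152, Nr1d2 0.00658 and 0.0354, and Nr1d2 1370541_at in kidney 0.0362. These p-values rest on the values that chose the loop, so they are a description and not a test of it. The difference of differences (198) gave 57 with the brightest probe set per gene, 448 with array weights, 0 with the Gapdh covariate, 699 at 0.1 and 40 to 410 with an array left out. Control liver against control kidney (11514) gave 7309 with the brightest probe set, from fewer tested, and 10254 to 11091 with an array left out; in TCE rats (11382) it was 7194, 5719 with the Gapdh covariate and 10115 to 10777. The cause of the other shifts was not tested. With the replicate number as a block the counts were 0 in liver, 0 in kidney, 0 for the difference of differences, 10902 and 10893, and no tissue call of the 6 genes changed. Same-numbered liver and kidney arrays of a treatment correlated at 0.0121 to 0.0845 after group means were subtracted. Those with different numbers had -0.0714 to 0.0516. All of these are small, and whether the numbers pair rats was not tested. With 3 arrays per group, dim probe sets near 2.17 limit what can be compared.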

Other observations

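The mean of each of the 4 groups was subtracted, so that only the spread between arrays of a group was left. The 6 genes were then compared again over the 12 arrays, as a description. Bmal1 and Rora ran opposite to each other (r = -0.74), although both were lower in treated livers. Clock and Rora ran together (0.59), as did Nr1d1 and Nr1d2 (0.52) and Nr1d2 and Rora (0.51). For Bmal1, r was -0.50 with Nr1d2 and -0.07 with Nr1d1.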
